A study of Mus musculus with 6 samples.

Results

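The expression of 9 G protein–coupled receptors (GPCRs) and 1 receptor partner was followed in primary adipocytes with and without a miR-182-5p mimic. These were Npy1r, Htr2a, Avpr1a, Agtr2, F2rl1, Gpr30, Gpr56, Ptgir and S1pr1, with the partner Ramp2, 10 of the 22609 genes listed in the count files. They were taken because their read counts differed between the groups in these very samples, so their levels and fold changes are given as a description, with no test. Symbols are those of the files, in which Gpr30 is the older name of Gper1 and Gpr56 that of Adgrg1.

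The cells came from the stromal vascular fraction of inguinal white fat (iWAT) of male C57BL6 mice, 3 weeks old by the labels, and were differentiated in culture. There were 2 groups of 3 samples, a control that the labels call a vector and a miR182 overexpression group. The labels give electroporation as the way of transfection, whereas the methods of the study name a lipid reagent and a mimic, and give a slightly older age for such mice. The study used these profiles to search for signals that fat cells send to macrophages, and the mRNA was sequenced from poly(A)-selected, strand-marked libraries. No label says that the 3 samples of a group were separate cultures or animals, so the p-values of other genes below measure only the spread between these samples. Each sample held between 25869810 and 28796712 reads on genes. The mature miRNA is not read by such a library, and its gene Mir182 had 0 reads in all 6 samples, so the counts do not check the transfection.

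A GPCR spans the membrane and, once its ligand binds, switches on a heterotrimeric G protein inside the cell. In fat cells the Gs class raises cAMP and favours lipolysis, the Gi class lowers cAMP, and Gq acts through phospholipase C and calcium. The ligands of the genes described here are peptides, amines, proteases, steroids, matrix proteins and lipids that are made by nerves, vessels, immune cells or the fat cells themselves.

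A miRNA pairs with its targets through its seed, bases 2 to 8, so the mature miR-182-5p is shown first, with the seed in capitals, as RefSeq gives it (GRCm38.p6, chromosome 6, 30165962 to 30165986, minus strand). The sequence of the mimic is not given in the sources used here, and the one that the methods of the study print for their miR-182-5p PCR assay is a different one.
miR-182-5p: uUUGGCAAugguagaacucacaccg

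The letters that pair with this seed, TTGCCAA, were searched on the sense strand in the protein-coding transcript with the longest 3′-UTR of each of the 10 genes (GENCODE M21 on GRCm38). The 7-base form TGCCAAA, which pairs with bases 2 to 7 and has an A after them, was searched too. It can overlap the first in the 8 letters TTGCCAAA. In the 3′-UTRs of 12520 tested genes, TTGCCAA occurred in 12.5%, TGCCAAA in 14.3% and TTGCCAAA in 5.24%. The 4 matches found are shown because they are all that the 10 transcripts hold, each with its flanks, the matched letters in capitals and the place of the match on GRCm38, plus strand.
Htr2a, 3′-UTR, chr14:74706559-74706565: tgcttttaacaTTGCCAAtgagatcttta
Htr2a, 3′-UTR, chr14:74707887-74707893: gttatagatatTTGCCAAggaaacaagga
Avpr1a, coding exon, chr10:122452199-122452205: gcttcccatgcTGCCAAAgcatagcgcag
Agtr2, coding exon, chrX:21486654-21486660: gtctatcctcaTTGCCAAcattttatttc
Of the 6 genes higher with the mimic, Htr2a had matches in its 3′-UTR and Avpr1a in its coding exon. Of the 4 genes lower with the mimic, Agtr2 had a match, in its coding exon, and none had a match in its 3′-UTR. The searched transcripts of Npy1r, Gpr56, Ptgir and Ramp2 are shorter than the joined exons of all their protein-coding transcripts. Exon bases outside the searched transcripts were thus not covered. For Ptgir the search covered 2725 bases beside 3334 of joined exon, and for Ramp2 899 beside 1547. No share over all genes was taken for coding exons. Such a match is a description of letters and does not say whether the miRNA binds there.

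All 10 genes passed the filter on low counts, and all 10 met the cutoffs of the study (at least 1.5-fold either way and an adjusted p under 0.05 in edgeR's quasi-likelihood test), by which they had been selected. The same cutoffs were met by 977 of the 13117 tested genes (7.45%), 258 of them higher (1.97%) and 719 lower (5.48%). Of the 10 genes, 6 were higher and 4 lower. The highest sample of one group lay below the lowest sample of the other for each of the 10, as it did for 7187 of all tested genes (54.8%). Levels are given as reads and as CPM (reads scaled to a common library size by edgeR's TMM factors), as mean ± SD with n = 3, and changes as log2 fold changes of mimic over control with their standard error (SE). This SE is the size of the log2 fold change divided by the square root of the F statistic of the quasi-likelihood test. DESeq2, another tool for counts, gave larger SEs for each of the 10 genes, such as 0.243 against 0.159 for Npy1r. In a bulk sample, fewer cells of a type and less RNA per cell cannot be told apart.

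**Figure D1:**
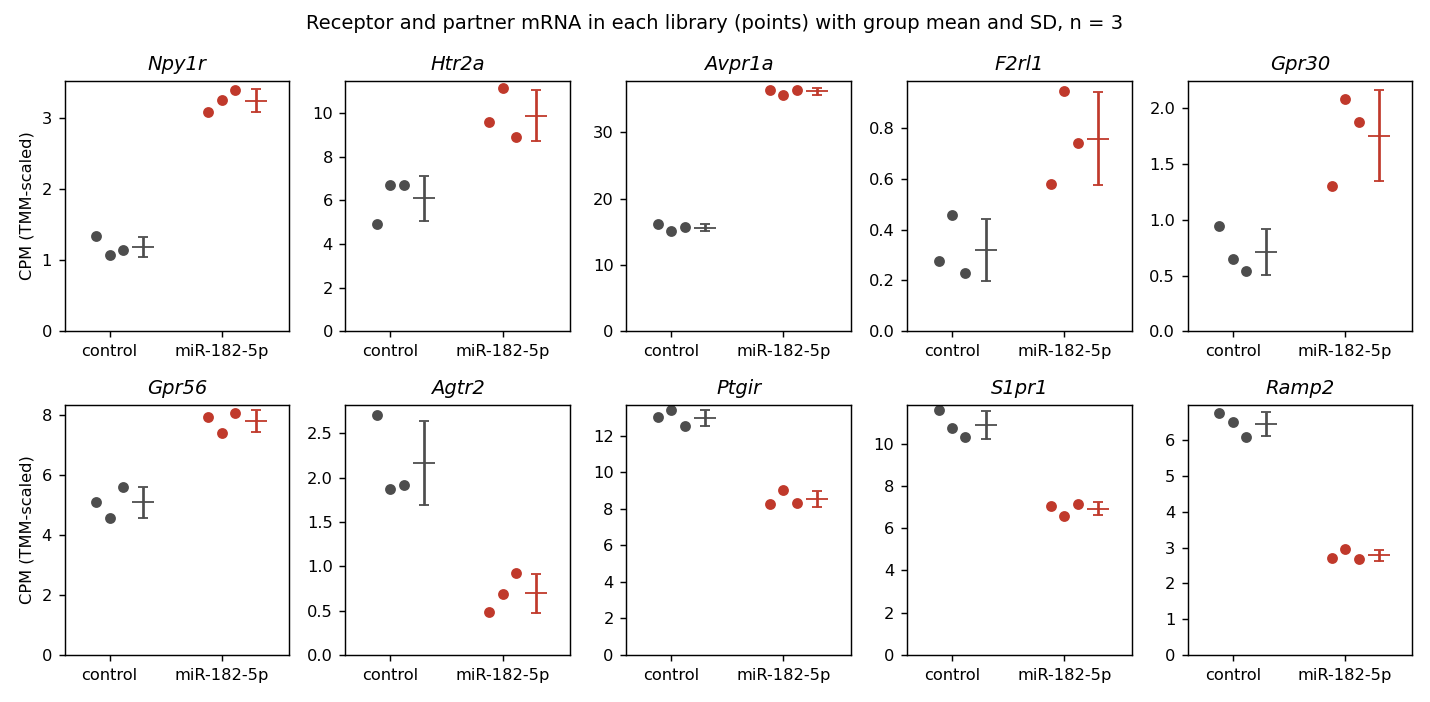
Each panel plots 1 gene, with TMM-scaled CPM on a linear axis from 0 and the 3 control (gray) and 3 miR-182-5p (red) samples as points beside the group mean and SD. The 6 genes from Npy1r to Gpr56 lie higher and the 4 genes from Agtr2 to Ramp2 lower in all 3 mimic samples than in any control sample, and the narrowest gap, 0.123 CPM, is that of F2rl1.

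Npy1r encodes the Y1 receptor of neuropeptide Y, which couples to Gi and restrains lipolysis in fat cells. Its reads were 34, 28 and 30 in the control samples and 90, 86 and 96 with the mimic, or 1.19 ± 0.136 against 3.25 ± 0.159 CPM. This was a 2.73-fold higher level, 1.45 on the log2 scale (SE 0.16), and the lowest mimic sample held over 50 reads more than the highest control sample. Its gene lies on chromosome 8 (66697192 to 66706792, plus strand, as for all positions here on GRCm38). The ligand itself was close to absent, since Npy had 2 to 4 reads in each sample. None of the 4 other Y receptor genes listed passed the filter, among them Npy2r with 2 to 10 reads. Dpp4, a peptidase that trims neuropeptide Y, had 2 to 6 reads.

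Htr2a encodes the serotonin 2A receptor, coupled to Gq. It had 125, 175 and 175 reads in the control samples and 280, 294 and 251 with the mimic (6.11 ± 1.03 against 9.88 ± 1.16 CPM). The log2 difference was 0.69 (SE 0.12), a 1.61-fold higher level. The first control sample was the low one, and without it the log2 difference was 0.56, under the 1.5-fold line (0.585 on the log2 scale). Htr2a (chromosome 14, 74640840 to 74709494, plus strand) holds both 3′-UTR matches printed above, and its mRNA was higher with the mimic. Of 13 other serotonin receptor genes, 11 had fewer than 10 reads in every sample, and the tested pair were Htr2b (0.33, SE 0.33, adjusted p = 0.461) and Htr1b (0.26, SE 0.37, adjusted p = 0.605).

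Avpr1a encodes the V1a receptor of vasopressin, another Gq-coupled receptor, and had the highest mean CPM of the 10 genes in both groups (chromosome 10, 122448499 to 122453452, plus strand). Its reads were 411, 395 and 409 in the control samples and 1065, 939 and 1030 with the mimic. The 15.6 ± 0.512 CPM of the control samples became 36.2 ± 0.486 with the mimic, a 2.31-fold higher level (log2 difference 1.21, SE 0.052). The coefficient of variation was 3.28% in the control group and 1.34% in the mimic group. The log2 difference ranged from 1.19 to 1.23 as samples were left out in turn. The closest relative with enough reads, the oxytocin receptor gene Oxtr, had 7.40 ± 0.424 CPM in the control and 7.01 ± 0.704 with the mimic (−0.08, SE 0.098, adjusted p = 0.533). No vasopressin mRNA was seen beyond 1 read in 1 sample. Lnpep, an aminopeptidase that cleaves vasopressin and oxytocin, was 0.16 higher on the log2 scale (SE 0.037, adjusted p = 0.00232), short of the fold cutoff.

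F2rl1 encodes protease-activated receptor 2, which a protease switches on by cutting its outer end (chromosome 13, 95511732 to 95525227, minus strand). It was the rarest of the 10, with 7, 12 and 6 reads in the control samples and 17, 25 and 21 with the mimic, or 0.321 ± 0.122 against 0.758 ± 0.184 CPM. Only 1 of the 3 control samples reached the level the filter asks for (0.379 CPM), so the gene entered the fit through the mimic group, which favours a higher level there. The log2 difference of 1.21 (SE 0.34) ranged from 1.02 to 1.56 when samples were left out in turn. Its relative F2r, the thrombin receptor gene, was far better covered, at 206 ± 5.70 CPM in the control and 275 ± 3.28 with the mimic (0.41, SE 0.029, adjusted p = 5.29e-08), under the fold cutoff. Among the genes that supply proteases to this receptor, F3 (tissue factor, the membrane cofactor of factor VIIa) differed by −0.36 (SE 0.032, adjusted p = 6.41e-07), and F7, the gene of that factor, fell by 1.01 (SE 0.37, adjusted p = 0.0367) from reads of 10 to 19 in the control to 6 to 10 with the mimic. Of these samples, 2 control and 1 mimic sample reached the filter level, so F7 was tested mainly through the group where it was high. F7 lost its call, with log2 values from −0.79 to −1.05 and adjusted p from 0.0691 to 0.139, without control sample 1 or 3 or without mimic sample 1 or 3.

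The last pair of higher genes respond to a steroid and to the matrix. Gpr30 encodes a membrane receptor that responds to estrogen (chromosome 5, 139423151 to 139427800, plus strand). Its reads were 24, 17 and 14 in the control samples and 38, 55 and 53 with the mimic (0.710 ± 0.210 against 1.76 ± 0.407 CPM). The log2 difference was 1.30 (SE 0.26), the first mimic sample being nearest to the control range. The nuclear estrogen receptor gene Esr1 had 8.25 ± 0.883 CPM in the control and 6.88 ± 0.460 with the mimic (−0.26, SE 0.099, adjusted p = 0.0422), within the fold cutoff. Hsd17b12, the best covered of the steroid enzyme genes listed, differed by −0.08 (SE 0.038, adjusted p = 0.0926). The aromatase gene Cyp19a1 was at 0 in all 6 samples.

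Gpr56 encodes an adhesion GPCR that signals through G12/13 and binds collagen III and the crosslinking enzyme Tgm2 (chromosome 8, 94974751 to 95014217, plus strand). It had 130, 119 and 146 reads in the control samples and 232, 195 and 228 with the mimic, or 5.09 ± 0.519 against 7.81 ± 0.358 CPM. The groups did not overlap, and the log2 difference was 0.62 (SE 0.10), 0.343 SE above the 1.5-fold line. Without the second control sample it was 0.55, below that line. Its ligand gene Col3a1 differed by −0.32 (SE 0.039, adjusted p = 1.23e-05) and Tgm2 by 0.01 (SE 0.028, adjusted p = 0.709).

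Other adhesion GPCR genes were called in the opposite direction. Of 18 listed, 9 were tested, 3 were called lower and none higher. Gpr124, a receptor known from brain vessels, fell by 0.77 on the log2 scale (SE 0.031, adjusted p = 1.58e-10), from 226 ± 7.62 to 132 ± 1.95 CPM. Gpr64 fell by 0.79 (SE 0.095, adjusted p = 1.04e-05), from 7.93 ± 0.467 to 4.58 ± 0.127 CPM. Gpr97, with 12 to 31 reads in a sample, fell by 0.84 (SE 0.30, adjusted p = 0.0327). The groups overlapped for Gpr97, and it was not called without control sample 1 or 3 or without mimic sample 2 or 3 (−0.66 to −0.78, adjusted p from 0.0852 to 0.141).

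**Figure D2:**
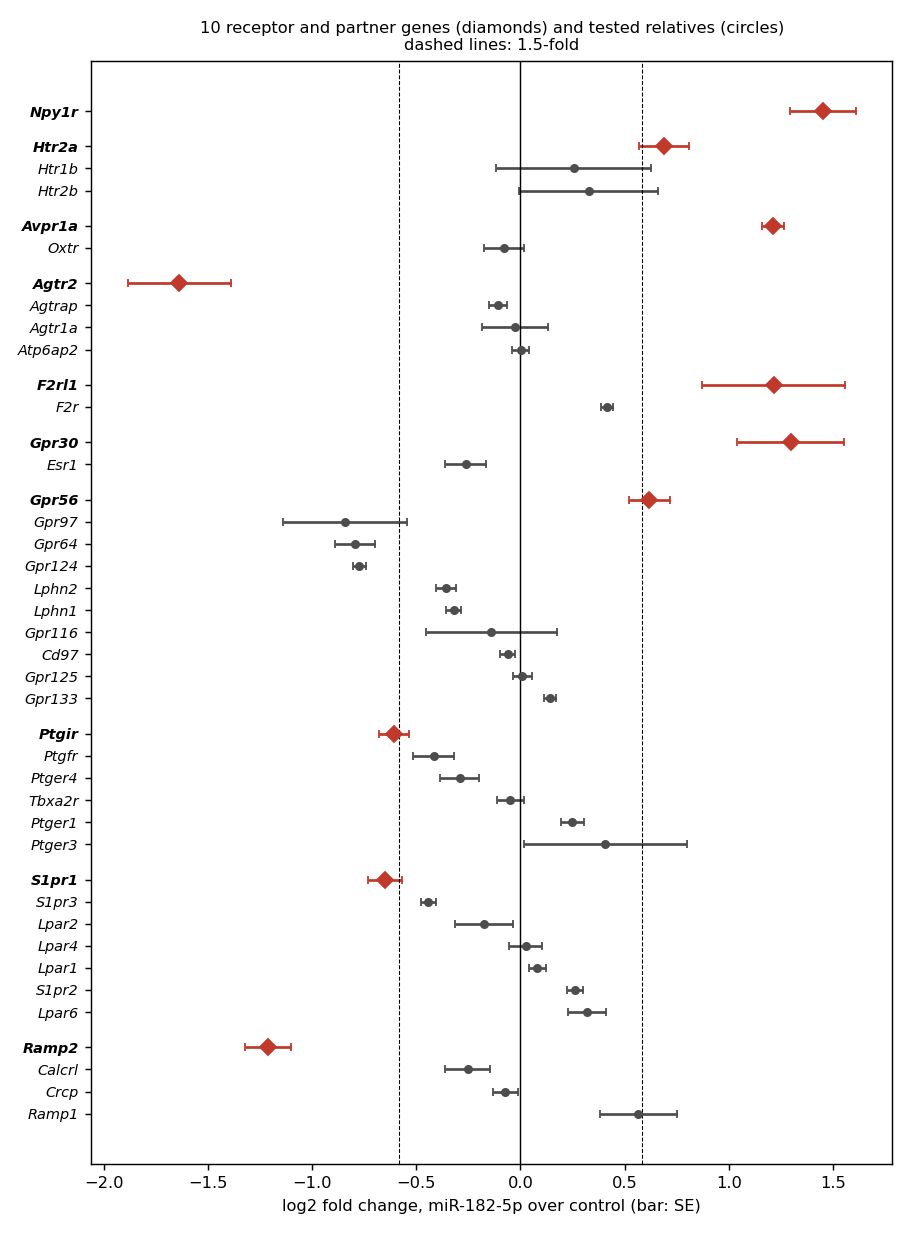
The horizontal axis is the log2 fold change of miR-182-5p over control with its SE, for the 10 genes (red diamonds, selected on this change) and for the 31 tested relatives of their families (gray circles, set under the gene they belong to), and dashed lines mark 1.5-fold. Of the relatives, only Gpr97, Gpr64 and Gpr124 lie beyond a dashed line and were called.

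Of the lower genes, the angiotensin receptor had the largest difference. Agtr2 encodes the type 2 angiotensin II receptor, which often opposes the type 1 receptor (chromosome X, 21484544 to 21489164, plus strand). Its reads were 69, 49 and 50 in the control samples and 14, 18 and 26 with the mimic (2.17 ± 0.471 against 0.695 ± 0.221 CPM). The control level was 3.11-fold that of the mimic samples (log2 difference −1.64, SE 0.25), and the first control sample and the third mimic sample were the high ones. Left-out samples moved the log2 difference between −1.90 and −1.42. It holds a seed match in its coding exon, shown above. The type 1 receptor gene Agtr1a had 2.94 ± 0.558 CPM in the control and 2.89 ± 0.262 with the mimic (−0.03, SE 0.16, adjusted p = 0.902). Upstream, Agt (angiotensinogen) differed by −0.19 (SE 0.030, adjusted p = 1.58e-04) and Ace, which makes angiotensin II, by −0.46 (SE 0.029, adjusted p = 1.65e-08), both short of 1.5-fold. The renin gene Ren1 was at 0 in all 6 samples.

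Anpep, an aminopeptidase that trims angiotensin peptides and also other peptides, fell from 67.3 ± 3.14 to 17.9 ± 0.792 CPM, by 1.91 on the log2 scale (SE 0.053, adjusted p = 4.67e-12). Enpep, which takes the first residue off angiotensin II, differed by 0.38 (SE 0.080, adjusted p = 0.00131), under the fold cutoff.

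The lipid mediator receptors among the 10 genes are Ptgir and S1pr1, both lower with the mimic. Ptgir encodes the prostacyclin receptor, which couples to Gs (chromosome 7, 16906490 to 16910905, plus strand). It had 332, 350 and 327 reads in the control samples and 241, 238 and 235 with the mimic, or 13.0 ± 0.438 against 8.54 ± 0.431 CPM. The gap between the groups, 3.50 CPM, was several times the SD of either, while the log2 difference, −0.61 (SE 0.074), was only 0.295 SE past the 1.5-fold line. It fell short of that line without the second control sample (−0.584) and without the first mimic sample (−0.582). Of 8 other prostanoid receptor genes, 5 were tested and none was called, with log2 differences from −0.42 (Ptgfr) to 0.41 (Ptger3).

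Among prostanoid enzymes, Ptgs2, Hpgd and Hpgds were called, all of them higher. Ptgs2, the inducible cyclooxygenase, rose from 17.7 ± 0.884 to 44.0 ± 7.81 CPM (1.32, SE 0.10, adjusted p = 1.33e-07), with 427, 461 and 484 reads in the control samples against 1542, 1087 and 1071. Its constitutive counterpart Ptgs1 differed by 0.12 (SE 0.051, adjusted p = 0.0776). Ptgis, which makes the ligand of Ptgir, differed by −0.20 (SE 0.073, adjusted p = 0.0342), and Ptges, a prostaglandin E synthase, by −0.50 (SE 0.036, adjusted p = 6.69e-08), both inside the fold cutoff. Slco2a1, the prostaglandin uptake carrier, differed by −0.10 (SE 0.040, adjusted p = 0.0464).
Hpgd, which inactivates prostaglandins, rose by 1.82 (SE 0.32, adjusted p = 3.34e-04) and Hpgds, a prostaglandin D synthase, by 0.99 (SE 0.25, adjusted p = 0.00424). Both were rare, with 4, 14 and 10 against 36, 29 and 43 reads for Hpgd, and 16, 15 and 14 against 27, 34 and 36 for Hpgds. Hpgd passed the filter through the mimic group, since 1 control sample lay below it.

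S1pr1 encodes a Gi-coupled receptor of sphingosine 1-phosphate (chromosome 3, 115710433 to 115715072, minus strand). Its reads were 295, 280 and 269 in the control samples and 206, 173 and 201 with the mimic (10.9 ± 0.655 against 6.91 ± 0.303 CPM). All 3 mimic samples lay at least 3.19 CPM below the control samples, with a log2 difference of −0.65 (SE 0.082), 0.802 SE past the line. The other receptors of the same lipid did not share one direction. S1pr3 differed by −0.44 (SE 0.037, adjusted p = 3.27e-07) and S1pr2 by 0.26 (SE 0.038, adjusted p = 6.90e-05), neither reaching 1.5-fold. Of the enzymes, Ppap2b, a lipid phosphatase of the cell surface that removes sphingosine 1-phosphate and lysophosphatidic acid, fell by 0.76 (SE 0.028, adjusted p = 6.25e-11), from 411 ± 9.76 to 242 ± 2.54 CPM. Its relative Ppap2a differed by 0.07 (SE 0.039, adjusted p = 0.182), the lyase gene Sgpl1 by 0.16 (SE 0.026, adjusted p = 2.28e-04) and the kinase gene Sphk1 by −0.0033 (SE 0.089, adjusted p = 0.980).

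Ramp2 is not a receptor but a single-pass protein that turns the calcitonin receptor-like receptor (Calcrl) into a receptor for adrenomedullin (chromosome 11, 101246028 to 101259546, plus strand). It had 172, 170 and 159 reads in the control samples and 79, 78 and 76 with the mimic, or 6.45 ± 0.336 against 2.79 ± 0.151 CPM. The control level was 2.32-fold that of the mimic samples (log2 difference −1.21, SE 0.11), with a coefficient of variation of 5.21% in the control and 5.43% in the mimic group. Calcrl itself had 8.87 ± 1.30 CPM in the control and 7.44 ± 0.439 with the mimic (−0.25, SE 0.11, adjusted p = 0.0632). Ramp1, the partner that makes the same receptor prefer the calcitonin gene-related peptide, had 38, 36 and 40 against 50, 62 and 70 reads (0.57, SE 0.19, adjusted p = 0.0219). Ramp1 was just short of 1.5-fold and passed it without control sample 3 (0.60, adjusted p = 0.0445) or mimic sample 1 (0.72, adjusted p = 0.00439). Ramp3 had at most 12 reads. The ligand gene Adm differed by −0.13 (SE 0.038, adjusted p = 0.0106) and Crcp, an accessory protein of the complex, by −0.07 (SE 0.060, adjusted p = 0.348). Adm2, a second ligand of these complexes, differed by 0.56 (SE 0.097, adjusted p = 3.19e-04) and passed the fold cutoff without control sample 3 (0.60, adjusted p = 0.00100) or mimic sample 2 (0.63, adjusted p = 2.18e-04).

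Divided by exon length, the 10 genes covered a wide range of levels. In the control samples the order by CPM per kb of exon was Avpr1a (5.86), Ramp2 (4.17), Ptgir (3.90), S1pr1 (3.57), Htr2a (1.09), Gpr56 (0.983), Agtr2 (0.660), Npy1r (0.343), Gpr30 (0.280) and F2rl1 (0.117). The sample ranges overlapped between Ramp2 and Ptgir, Ptgir and S1pr1, Htr2a and Gpr56, and Npy1r and Gpr30, so those neighbours are not ordered beyond their spread. With the mimic the order was Avpr1a (13.6), Ptgir (2.56), S1pr1 (2.27), Ramp2 (1.80), Htr2a (1.76), Gpr56 (1.51), Npy1r (0.941), Gpr30 (0.692), F2rl1 (0.277) and Agtr2 (0.212). There only Ramp2 and Htr2a, and F2rl1 and Agtr2, overlapped as neighbours. Agtr2 went from the seventh place, where it overlapped no neighbour, to the last, where it overlapped F2rl1.

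**Figure D3:**
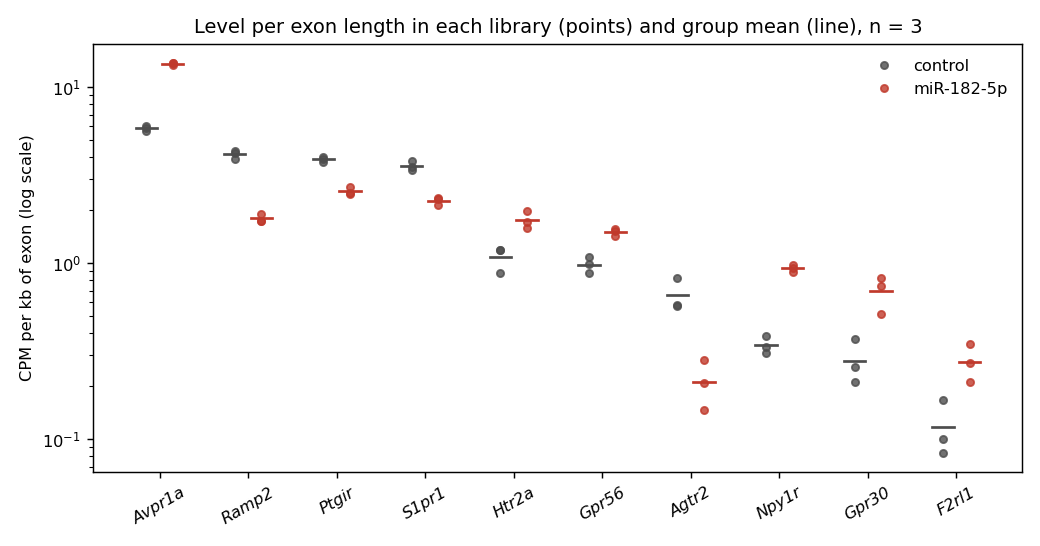
The vertical axis is CPM per kb of exon on a log scale, and the genes stand in the order of their control mean, with the 3 samples of each group as points and the group mean as a line. Avpr1a leads in both groups, at 5.86 and 13.6 CPM per kb, and Agtr2 goes from 0.660 to 0.212.

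As a sum, the 6 higher genes took 28.6 to 29.9 CPM in the control samples and 59.0 to 60.5 with the mimic, with Avpr1a as the largest contributor. The 4 lower genes took 30.8 to 34.1 CPM in the control samples and 18.5 to 19.2 with the mimic. These sums follow from the way the genes were picked and are given to show their size. The genes closest to the fold line were Ptgir, Gpr56, S1pr1 and Htr2a, each within 1 SE of it. Of the relatives that stayed short of the line, Ramp1 (0.57) and S1pr3 (−0.44) came nearest to it.

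**Figure D4:**
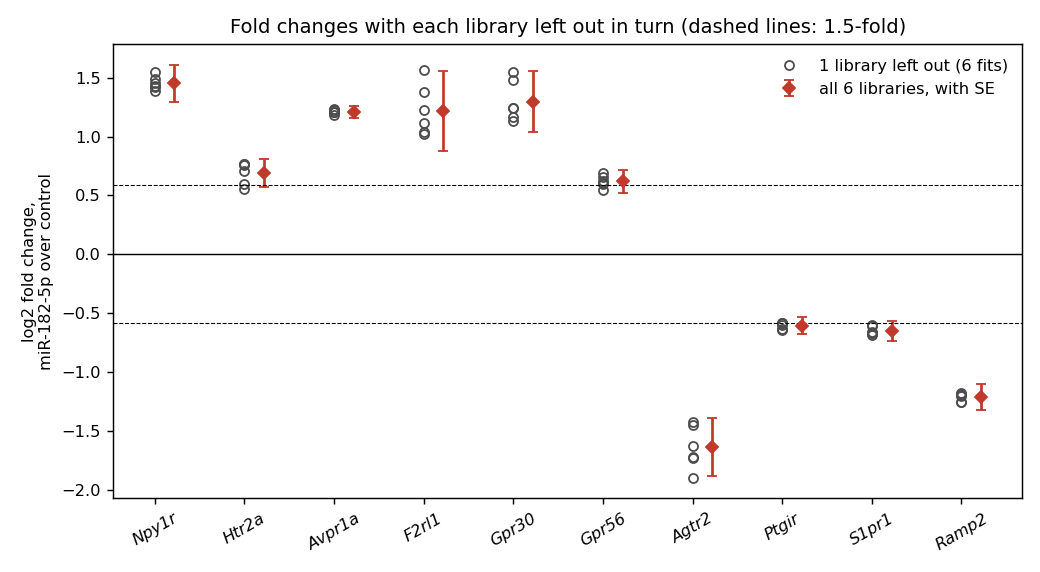
The vertical axis is the log2 fold change of miR-182-5p over control, with open circles for the 6 fits that each leave out 1 sample and a red diamond with its SE for the fit to all 6. Htr2a, Gpr56 and Ptgir each have circles inside the dashed 1.5-fold lines, while F2rl1, Gpr30 and Agtr2 have the widest spread and stay outside.

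Genes that surround these receptors were read from 5 lists, 225 genes with 224 of them in the files and 133 tested. Of these 133 genes, 8 were called higher (6.02%) and 8 lower (6.02%), beside 1.97% and 5.48% over all tested genes, with a median log2 difference of −0.0068 against −0.0043 over all. The lists were chosen with earlier results of these data known. Among the called genes, Tph2, Hpgd and F7 did not reach the filter level in every sample, so no excess of calls is read from these shares. Genes that make, carry or break the ligands gave 4 higher and 3 lower of 37 tested (median −0.0033), and the relatives of the receptors 0 higher and 3 lower of 31 (median −0.06). Of these lists, the ligand genes had the widest range. Tph2, a tryptophan hydroxylase that starts serotonin synthesis, had 7, 4 and 11 reads in the control samples and 39, 24 and 37 with the mimic (2.06, SE 0.33, adjusted p = 1.52e-04), and passed the filter through the mimic group. The next enzyme of that route, Ddc, had 4 to 12 reads and the serotonin carrier Slc6a4 at most 3. Serotonin is broken down by the monoamine oxidases, of which Maoa differed by −0.16 (SE 0.044, adjusted p = 0.00897) and Maob by −0.01 (SE 0.065, adjusted p = 0.943).

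Inside the cell, none of 22 tested G protein subunit genes was called (median −0.05), although 12 of them had an adjusted p under 0.05 with smaller differences. Gnaq, the α subunit through which Htr2a and Avpr1a act, had 97.0 ± 2.25 CPM in the control and 68.9 ± 1.24 with the mimic (−0.49, SE 0.033, adjusted p = 3.71e-08), inside the fold cutoff. Its near twin Gna11 differed by −0.10 (SE 0.029, adjusted p = 0.0133) and Gnas, the Gs subunit, by 0.04 (SE 0.027, adjusted p = 0.273). Another subunit gene, Gnb1, went the other way from Gnaq by a like amount, from 331 ± 6.56 to 467 ± 5.69 CPM. Its log2 difference of 0.50 (SE 0.028, adjusted p = 5.19e-09) was also inside the fold cutoff.

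Of 18 tested genes that limit G protein signals, 2 were called higher and 2 lower (median −0.0076). Rgs2, a GTPase activator that turns off Gq, fell from 32.8 ± 1.13 to 11.1 ± 0.681 CPM, by 1.56 on the log2 scale (SE 0.062, adjusted p = 1.36e-10). Rgs17 fell by 0.94 (SE 0.17, adjusted p = 4.26e-04). Rgs11 rose by 1.28 (SE 0.17, adjusted p = 2.98e-05), from 0.979 ± 0.0733 to 2.39 ± 0.0496 CPM, and Rgs4 by 0.61 (SE 0.13, adjusted p = 0.00146). Rgs4 was under the fold cutoff without control sample 2 (0.50, adjusted p = 0.0103) or mimic sample 1 (0.55, adjusted p = 0.00495).

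Of 25 tested effectors of Gq and G12/13, 2 were called higher and none lower (median 0.06). Plcb4, a phospholipase C that Gq activates, rose from 22.9 ± 0.437 to 37.0 ± 1.03 CPM (0.69, SE 0.049, adjusted p = 6.42e-08). Prkcc, a protein kinase C gene, rose by 0.65 (SE 0.23, adjusted p = 0.0315), but control sample 2 was low with 27 reads beside 65 and 44. Without that sample Prkcc differed by 0.38 (adjusted p = 0.137), and its adjusted p was 0.0839 without control sample 3, 0.0533 without mimic sample 1 and 0.0643 without mimic sample 2.

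**Figure D5:**
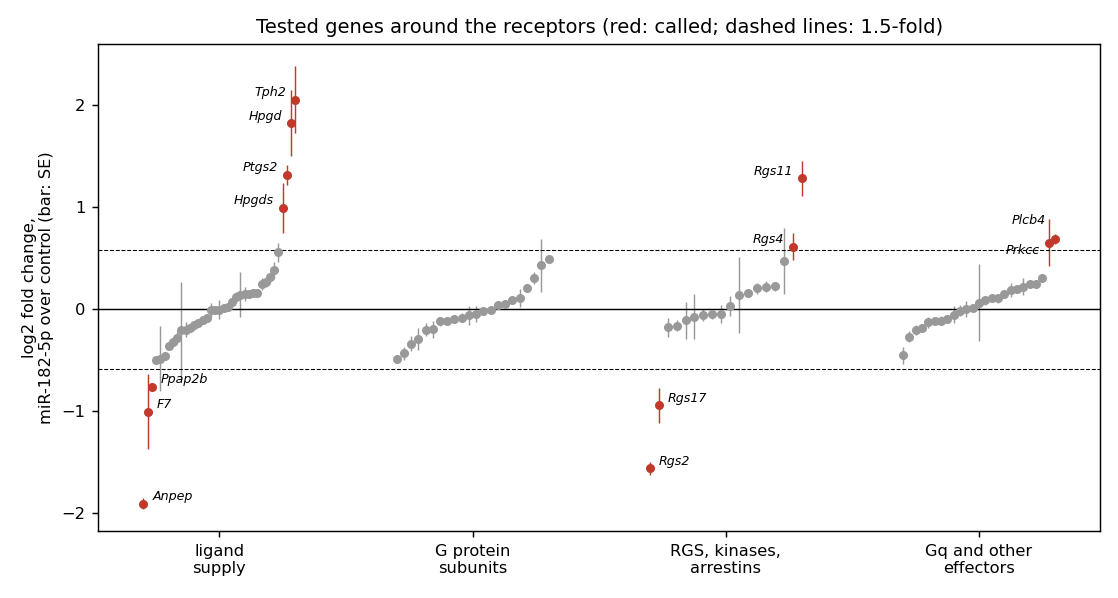
Each point is 1 tested gene of 4 lists, sorted by its log2 fold change of miR-182-5p over control (vertical axis, bar: SE), red where it was called, and dashed lines mark 1.5-fold. No G protein subunit is red, and the genes farthest from 0 are Anpep (−1.91), Rgs2 (−1.56), Hpgd (1.82) and Tph2 (2.06).

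Markers of the cells that such a culture can hold also differed between the groups. Of 12 adipocyte markers, all tested, 3 were called lower (Pnpla2, Retn and Fabp4), and their summed level was 14017 to 14813 CPM in the control samples and 9605 to 10854 with the mimic. Only Lep of that list was higher, by 0.37 (SE 0.086, adjusted p = 0.00276), short of the fold cutoff. Of 10 progenitor markers, 9 were tested and 4 called lower (Pdgfra, Dcn, Cd34 and Pi16), with sums of 21016 to 22105 and 19832 to 20677 CPM. Most of these sums was Col1a1, with 19248 ± 611 and 18643 ± 386 CPM (−0.05, SE 0.040, adjusted p = 0.378), so they say little of the other markers. Only Thy1 of the tested progenitor markers was higher, by 0.19 (SE 0.033, adjusted p = 3.47e-04), short of the fold cutoff. Ramp2 and S1pr1 are widely used by endothelial cells. Of 12 endothelial markers, 6 were tested and 1 was called, Tek, which fell from 6.05 ± 0.607 to 2.43 ± 0.247 CPM (−1.31, SE 0.13, adjusted p = 1.49e-06). Flt1 (0.36, SE 0.079, adjusted p = 0.00189) and Kdr (0.43, SE 0.20, adjusted p = 0.0899) differed in the other direction, neither being called. Egfl7 (−0.46, SE 0.096, adjusted p = 0.00131), Vwf (−0.51, SE 0.30, adjusted p = 0.180) and Cdh5 (−0.14, SE 0.30, adjusted p = 0.730) were lower, as Tek was, and were not called either. The sum over the list was 23.9 to 25.1 CPM in the control samples and 21.5 to 21.9 with the mimic, Cldn5 was at 0 in all 6 samples, and the defining genes Pecam1 and Cdh5 had 3 to 11 and 11 to 17 reads.

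Smooth muscle and pericyte markers summed to 3632 to 3808 CPM in the control samples and 4357 to 4709 with the mimic, and Kcnj8, the only one called of 9 tested, was lower. None of its mimic samples reached the filter level, so it entered the fit through the control group and had to come out lower. Most of the smooth muscle and pericyte sums was Acta2 and Tagln. Acta2 went from 2364 ± 68.9 to 2891 ± 121 CPM, and Tagln from 1123 ± 28.7 to 1277 ± 84.5 CPM. Cspg4 (0.50), Mcam (0.41) and Cnn1 (0.20) were also higher, while Notch3 was lower (−0.38, SE 0.053, adjusted p = 4.94e-05). Myh11 and Des differed by −0.02 and −0.10. Macrophage markers summed to 14.8 to 15.8 and 12.5 to 16.0 CPM, with Cd163 at 0 and 1 of 4 tested genes, Lyz2, called lower. Mesothelial markers summed to 23.4 to 24.5 and 35.3 to 46.9 CPM, with Krt19 called higher of 2 tested. Most of these sums was Krt19, with 22.8 ± 0.596 and 39.7 ± 5.84 CPM, so they say little of the other markers. Lrrn4, the other tested gene, differed by −0.57 (SE 0.33, adjusted p = 0.178), and Msln had 6 to 11 reads. Markers of Schwann cells and neurons summed to 72.6 to 77.9 and 89.6 to 91.1 CPM, while Ngfr and S100b were called lower of 5 tested. Most of the Schwann cell and neuron sums was Tubb3, with 56.0 ± 1.90 and 79.4 ± 0.868 CPM. It differed by 0.50 (SE 0.037, adjusted p = 9.09e-08), short of the fold cutoff. The part that these shifts in cell markers have in the receptor differences was not tested.

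A promoter window of 250 bases before to 50 after the start was found in RefSeq (GRCm38.p6) for 7 of the 10 genes, F2rl1, S1pr1 and Ramp2 being the others. On either strand, TATAAA occurred in those of Avpr1a and Gpr30, against 13.6% of all 32851 windows. The palindromes TGACGTCA (1.79% of all windows) and CACGTG (7.15%) and the hexamer AGGTCA (16.3%) were in none of them, which says only that these letters are not in these windows.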

How the data were processed

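Differentiated inguinal stromal cells in primary culture, 3 control and 3 miR-182-5p samples, were profiled by poly(A) RNA-Seq. Unnormalized counts of reads per gene symbol, 1 file a sample, are what the authors deposited. The submitters' processing notes name bcl2fastq, TopHat2, HTSeq and the build mm9, while versions and the strand setting are not given in the sources used here. Without the strand setting, reads from overlapping antisense genes could be split differently, though no exon of the 10 genes' coding transcripts overlaps an exon of another gene in GENCODE M21. Replicates differed by more than counting noise (chi-square per degree of freedom 2.13 to 7.18 between pairs). The highest values were those of mimic sample 1 against mimic samples 2 (5.01) and 3 (7.18). The other pairs lay between 2.13 and 3.10. The closing tally lines of each file (12.7% to 13.0% of unique reads outside genes) were left out of library sizes. Counts were fitted in R 4.3.3 with edgeR 4.0.16 (TMM, glmQLFit and glmQLFTest with group as the only term, low genes removed by filterByExpr at its minimum count of 10), and p-values were adjusted by Benjamini-Hochberg over 13117 genes. A gene was called at 1.5-fold either way and an adjusted p under 0.05. The study states these cutoffs but not its test. CPM used TMM-scaled library sizes.

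The 10 genes, the 5 lists of surrounding genes and the marker lists were chosen with earlier results of these data known. Named genes were the 10, every called gene of the lists, and up to 2 relatives or ligand makers per gene by highest mean CPM. Npy, Avp, Cyp19a1, Ren1, Ddc, Slc6a4, Htr2b, Htr1b, Agtr1a, Enpep, Ptgs1, Ptgis, Ptgfr, Ptger3, S1pr2, S1pr3, Sphk1, Calcrl, Ramp1, Ramp3, Adm2, Gnaq, Gna11, Gnas, Gnb1, Lep, Thy1, Col1a1, Flt1, Kdr, Egfl7, Vwf, Pecam1, Cdh5, Acta2, Tagln, Cnn1, Cspg4, Mcam, Notch3, Myh11, Des, Lrrn4, Msln and Tubb3 were named after their values were seen. Of the 22609 symbols, 22169 were matched to GENCODE M21 (GRCm38), 1923 through an older symbol. That is not the build of the counts, and it gave coordinates, exon lengths and transcripts only. Alternatives used DESeq2 1.42.0, limma-voom (limma 3.58.1), other scalings, filters, call rules and each sample left out. The fits were tested on simulated data.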

Additional observations from a re-analysis of the deposited data

How the results depend on the processing

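Dropping 1 sample at a time, 221 to 284 genes were called higher and 679 to 728 lower over all genes, 5 to 6 and 3 to 4 of the 10 receptor and partner genes, and 6 to 9 and 6 to 8 of the surrounding genes. Under glmTreat against 1.5-fold the calls over all genes were 52 higher and 246 lower, those of the 10 genes 2 and 2, and those of the surrounding genes 4 and 4. At 2-fold or more they were 60 and 220 over all genes, 4 and 2 among the 10 genes, and 4 and 3 among the surrounding genes. By the adjusted p alone they were 3037 and 3087 over all genes and 38 and 41 among the surrounding genes. These 3 rules differ from the main one by construction.

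The log2 differences of the 10 genes gave 129 values over the alternatives, of which 125 kept direction and call, 4 lost the call (Htr2a 0.56, Gpr56 0.55, and Ptgir −0.584 and −0.582, the first without control sample 1, the second without control sample 2, and the last pair without control sample 2 and without mimic sample 1) and 0 reversed. The 10 genes were selected on this contrast in these samples, and their groups did not overlap, so a reversal could hardly occur. The tally describes the fits and is no independent support for these genes. The 129 values do not cover glmTreat, the 2-fold rule or the adjusted p alone. Under glmTreat, Npy1r, Avpr1a, Agtr2 and Ramp2 kept their call, while Htr2a, F2rl1, Gpr30, Gpr56, Ptgir and S1pr1 lost it. With at least 10 counts asked of every sample, F2rl1 was not tested. DESeq2 did not call F7 and Gpr97.

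Whether the numbers 1 to 3 in the labels pair the samples is not stated, and the main fit did not pair them. Same-numbered samples did not deviate together (correlations −0.176, −0.0369 and −0.0664). With 3 samples a group, such correlations cannot exclude a pairing, so a fit with a block for the replicate number was run as an alternative. With the replicate block 925 genes were called, 921 of them among the 977 called without it, and the only surrounding gene that lost its call was F7. No call of the 10 genes changed.

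Depth limits the rarest genes most. F2rl1, Gpr30 and Agtr2, with 6 to 69 reads in a sample, have SEs of 0.25 to 0.34, against 0.052 for Avpr1a.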
